A study of Mus musculus with 21 samples.

Results

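Heat shock proteins and chaperonins were described here as the genes whose names matched the Hspa, Hspb, Hspd, Hspe, Hsph, Hsp90, Cct, Dnaja, Dnajb or Dnajc patterns, together with Tcp1. The rule found 69 members among the 12404 genes listed in at least 1 of the 3 deposited tables. Of these, 68 were listed for reprogramming cells with vitamin C (Vc+), 66 for reprogramming cells without it (Vc-) and 68 for fibroblasts (MEFs), and 66 were listed in every table. Dnajc28 was listed only in the Vc+ table, Hspa12a was not listed in the Vc- table, and Hspb7 was listed only in the MEF table. By family the members were 12 HSP70 genes, 3 HSP90 genes, 1 HSP110 gene, the HSP60 and HSP10 pair, 5 small heat shock protein genes, the 8 subunit genes of the cytosolic chaperonin TRiC, and 4 Dnaja, 9 Dnajb and 23 Dnajc genes. Families were assigned by gene name, so the HSP70 genes are those with an Hspa name and include Hspa4l, which is of the HSP110 type. Hspbp1 and Hspbap1 matched the pattern by name but encode partners of heat shock proteins, and Hspb11 encodes a protein of the ciliary transport machinery.

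The study asked how Dnmt1, which maintains DNA methylation, and modulation of the cell cycle change gene expression in MEFs and in cells on their way to pluripotency. Total RNA was sequenced from 21 mouse libraries, 7 in each table, and each combination of constructs was 1 library per table. All cells were passage 2 MEFs of ICR embryos at embryonic day 13.5, infected for 48 h with retroviruses. The tested constructs were Tet1CD (the catalytic domain of the demethylase Tet1), a library labelled Dnmt1, and the hairpins shDnmt1 and shp53. The reference was Flag with shLuc, an empty tag and a hairpin against luciferase, called the control here. SKOM libraries additionally carried Sox2, Klf4, Oct4 and c-Myc and were harvested on day 5 in embryonic stem cell medium. Of the 7 SKOM libraries per medium, 3 had Tet1CD (alone, with Dnmt1 and with shDnmt1), and 4 lacked it (the control, Dnmt1, shDnmt1, and shp53 plus shDnmt1). The MEF table held Tet1CD, Dnmt1, shDnmt1, shp53, shp53 plus shDnmt1, a library named 5C and the control. The labels do not expand 5C; that library carried the control constructs, Flag with shLuc, and its column name gives day 4. Retroviral infection leaves a mixed culture, and nothing states that libraries came from separate cultures, so each p-value covers the spread between libraries, which may be technical.

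Chaperones bind unfolded or partly folded proteins and let them reach their native state. HSP70 proteins do this in cycles of ATP hydrolysis that are started by J-domain proteins (the Dnaja, Dnajb and Dnajc families) and reset by nucleotide exchange factors such as HSP110. HSP90 receives clients from HSP70, and the chaperonins enclose a client in a barrel: TRiC in the cytosol, where actin and tubulin are its best known clients, and HSP60 with its HSP10 lid in mitochondria. The stress-inducible members are controlled by the transcription factor Hsf1, and those of the endoplasmic reticulum (ER) by the unfolded protein response.

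The deposited values were whole numbers already normalized within each table by the authors, so read depth is unknown and values were compared within a table. Library medians were 226 in the Vc+ table, 180 in the Vc- table and 203 to 208 in the MEF table. The highest value (28926, 19681 and 38803 in the Vc+, Vc- and MEF tables) was shared by 10 genes in each library, or 9 in MEF Tet1CD, so a gene at that ceiling cannot show a further rise. The next value below it was 18125, 10801 and 19852 in these tables, so any step to the ceiling has a set minimum size. Tet1 stood at 2503 to 3129 in Vc+ libraries with Tet1CD, against 41 to 88 without it, and at 2140 to 2632 in Vc- libraries with Tet1CD, against 11 to 19 without it. Tet1 was not listed in the MEF table, so the MEF library with Tet1CD could not be checked this way. Trp53 stood at 157 and 186 in MEFs with shp53, against 1008 in the control, and at 621 (Vc+) and 453 (Vc-) in SKOM cells with shp53, against 1194 (Vc+) and 873 (Vc-) in the controls. Dnmt1 stood at 208 in MEFs with shDnmt1 and at 975 in MEFs labelled Dnmt1, against 957 in the control, and at 410 with shp53 plus shDnmt1, against 1622 with shp53 alone. In Vc+ cells Dnmt1 was at 1154 with shDnmt1 and 1319 with shp53 plus shDnmt1, against 2346 in the control, and at 655 with Tet1CD plus shDnmt1, against 1080 with Tet1CD. In Vc- cells it was at 527 with shDnmt1 and 726 with shp53 plus shDnmt1, against 984 in the control, and at 437 with Tet1CD plus shDnmt1, against 967 with Tet1CD. In SKOM cells Dnmt1 was at 2381 (Vc+) and 1001 (Vc-) in the libraries labelled Dnmt1, against 2346 (Vc+) and 984 (Vc-) in the controls, so its level did not set those libraries apart. Of the 12 fibroblast markers, 12 were listed in MEFs and in Vc+ cells and 11 in Vc- cells, none at 0 in any library. The 5C library stood apart from the other MEF libraries, with 67.1% of genes past 1.5-fold from the control, against 1.37% for the library labelled Dnmt1.

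Several members cannot be read at face value. Hsp90ab1, the constitutive cytosolic HSP90, was at the ceiling in every SKOM library, and Hspa8, the constitutive cytosolic HSP70, was at 18106 in every Vc+ library and at 10784 in every Vc- library, the value of rank 18 each time, so no change could be seen for either in SKOM cells. Long stretches of some transcripts also occur in other genes or pseudogenes: of all 50-base stretches this held for 73.2% in Hspa8, 62.3% in Hspa1b, 60.3% in Hspa1a, 58.5% in Hsp90aa1, 51.6% in Hspb1, 44.8% in Hspd1 and 36.1% in Hspe1. How reads were shared among such copies is not given in the sources used here, and values of these genes are uncertain to that extent. Dnaja4 shares up to 44.1% of its exon bases with Wdr61 on the opposite strand, and whether counting used strand is not given either.

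Promoters of 5 of the 7 members with an exact match to a searched stress element are shown first, since the stress-inducible and ER groups are described below. RefSeq promoters (250 bases before to 50 after the start, build GRCm38.p6) matched 58 of the 69 members, with 76 promoters. A heat shock element, searched as GAANNTTCNNGAA on both strands, was in 6 of the 76 (7.89%, those of Dnajb6, Hspd1, Hspe1 and Hsph1). This compares with 0.603% of all 32851 promoters and 0.484% of those of genes listed here. The 6 include overlapping promoters of Dnajb6, of Hsph1, and of Hspd1 with Hspe1, so some sequence was counted more than once. An ER stress element, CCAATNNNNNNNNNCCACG on both strands, was in 3 (3.95%, those of Hspa5, Hsp90b1 and Dnajc3). This compares with 0.119% of all promoters and 0.144% of those of listed genes. The Myc E-box CACGTG was in 10.5% of the members' promoters, against 7.15% of all and 9.87% of those of genes listed here. The CCAAT box, which the ER stress element contains, was in 38.2%, against 37.4% of all and 37.8% of those of listed genes. The promoters of Hspa1a, Hspa1b, Dnajb1 and Hspb1 held no exact match to the heat shock element, and that of Dnajb9 none to the ER stress element. Hsp90aa1, Hsp90ab1 and Hspa8 were among the members without a promoter to search. A match describes these letters only and is not a bound site, and a missing match does not show that an element is absent. Each line below is written 5′ to 3′ with the matched elements in capitals; Hspe1 and Hspd1 lie head to head with a gap of 107 bp on chromosome 1 and share the elements shown for Hspe1, and those of Dnajb6 are not printed.
Hspe1 (chr1:55087898-55088197, plus strand; 2 overlapping heat shock elements): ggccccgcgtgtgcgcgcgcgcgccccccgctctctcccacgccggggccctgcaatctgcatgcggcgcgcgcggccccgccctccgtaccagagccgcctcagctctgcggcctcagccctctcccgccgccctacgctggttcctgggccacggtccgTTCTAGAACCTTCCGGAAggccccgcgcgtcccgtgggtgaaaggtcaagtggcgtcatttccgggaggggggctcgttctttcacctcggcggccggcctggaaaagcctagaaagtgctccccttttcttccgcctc
Hsph1 (chr5:149636266-149636565, minus strand; 1 heat shock element): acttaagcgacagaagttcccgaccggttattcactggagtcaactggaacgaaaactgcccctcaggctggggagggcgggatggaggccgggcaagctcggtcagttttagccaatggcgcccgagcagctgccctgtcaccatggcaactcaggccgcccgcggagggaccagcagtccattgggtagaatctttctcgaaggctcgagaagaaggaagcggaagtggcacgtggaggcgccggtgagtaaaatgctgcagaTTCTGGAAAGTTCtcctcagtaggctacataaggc
Hspa5 (chr2:34771840-34772139, plus strand; 1 ER stress element): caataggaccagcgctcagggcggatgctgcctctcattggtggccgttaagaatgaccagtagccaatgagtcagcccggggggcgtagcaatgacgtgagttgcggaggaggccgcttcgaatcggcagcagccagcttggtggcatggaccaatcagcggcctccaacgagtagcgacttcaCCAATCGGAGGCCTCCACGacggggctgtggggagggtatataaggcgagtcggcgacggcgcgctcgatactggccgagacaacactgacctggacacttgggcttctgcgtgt
Hsp90b1 (chr10:86705395-86705694, minus strand; 2 ER stress elements): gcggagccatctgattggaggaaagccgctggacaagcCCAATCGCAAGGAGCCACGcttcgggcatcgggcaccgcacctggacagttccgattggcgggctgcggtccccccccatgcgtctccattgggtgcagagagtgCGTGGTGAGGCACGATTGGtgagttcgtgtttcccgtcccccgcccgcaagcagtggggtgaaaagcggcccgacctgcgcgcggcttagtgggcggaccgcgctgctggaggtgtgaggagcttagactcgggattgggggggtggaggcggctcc
Dnajc3 (chr14:118937682-118937981, plus strand; 1 ER stress element): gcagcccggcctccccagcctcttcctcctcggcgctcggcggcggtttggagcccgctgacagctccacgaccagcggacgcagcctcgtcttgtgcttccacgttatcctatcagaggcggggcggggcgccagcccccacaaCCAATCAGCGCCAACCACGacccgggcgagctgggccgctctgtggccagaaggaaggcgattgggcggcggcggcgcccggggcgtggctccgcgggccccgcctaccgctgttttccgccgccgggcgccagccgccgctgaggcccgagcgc

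The largest comparison concerned Tet1CD in SKOM cells, with 6 libraries with it and 8 without it, in 1 model over both media. Among the 8, the libraries with shp53 plus shDnmt1 are fitted by the shp53 term and do not enter the Tet1CD estimate. That estimate compares libraries matched for their other constructs, while the values listed below show all libraries. The cytosolic chaperonin and the mitochondrial chaperonin were lower with Tet1CD, several Dnajb genes and most ER members were higher, and the stress-inducible HSP70 genes did not pass the test. In all, 40 of 66 members passed an adjusted p of 0.05 (60.6%), against 45.2% of the 10711 genes tested. Of the members 17 rose (25.8%, against 20.3% of all genes) and 23 fell (34.8%, against 24.9% of all genes), and the median log2 fold change was -0.10 for members and -0.04 for all genes. Fold changes are on the scale of log2(value + 5), with over without Tet1CD. In these bulk libraries fewer cells of a type and less RNA per cell cannot be told apart.

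All 8 TRiC genes fell with Tet1CD, with a median log2 fold change of -0.39 and a range of -0.55 to -0.21. In the following sentences SKOM values are listed for Tet1CD alone, with Dnmt1 and with shDnmt1, against the control, Dnmt1, shDnmt1, and shp53 plus shDnmt1. Cct5 (chr15:31590800-31601847, mm10) fell most, at 2772, 2833 and 2946 with Tet1CD, against 4586, 5366, 4586 and 6115 without it in Vc+ medium. In Vc- medium Cct5 stood at 2044, 2141 and 1890 with Tet1CD, against 2449, 3013, 2300 and 3127 without it, and the change over both media was -0.55 ± 0.09 (SE), limma adjusted p = 0.000784. The groups with and without Tet1CD did not overlap for Cct5 in either medium.
Tcp1, the founding subunit, stood at 1936, 2001 and 1625 with Tet1CD against 2551, 2645, 2698 and 2645 without it in Vc+ cells and at 1395, 1562 and 1434 with Tet1CD against 1785, 1866, 1694 and 1726 without it in Vc- cells (-0.40 ± 0.07 (SE), limma adjusted p = 0.000974). Cct2 stood at 3519, 3263 and 3436 with Tet1CD against 4440, 5161, 4779 and 7079 without it in Vc+ cells and at 2546, 2701 and 2631 with Tet1CD against 3012, 3127, 3012 and 3512 without it in Vc- cells (-0.35 ± 0.09). Cct3 had the smallest change, -0.21 ± 0.07 (SE), limma adjusted p = 0.0248, with 3084, 3134 and 3730 with Tet1CD against 4040, 4295, 3906 and 4590 without it in Vc+ cells and 2195, 2195 and 2239 with Tet1CD against 2305, 2637, 2305 and 2637 without it in Vc- cells. Both genes were lower in every Tet1CD library than in any library of the same medium without it, by a narrower margin for Cct3.
Cct4 stood at 2379, 1992 and 2132 with Tet1CD against 2879, 3258, 3258 and 2940 without it in Vc+ cells and at 1378, 1637 and 1303 with Tet1CD against 1718, 1927, 1779 and 1965 without it in Vc- cells (-0.43 ± 0.08). Cct6a stood at 1113, 1092 and 978 with Tet1CD against 1417, 1752, 1486 and 1735 without it in Vc+ cells and at 768, 709 and 726 with Tet1CD against 876, 943, 876 and 869 without it in Vc- cells (-0.42 ± 0.08). It was the least abundant subunit gene in each SKOM library, and its exons overlap Psph and Snora15 over up to 15.3% of their bases.
Cct7 stood at 2192, 2159 and 2105 with Tet1CD against 3129, 3130, 3129 and 3019 without it in Vc+ cells and at 1557, 1691 and 1593 with Tet1CD against 1862, 1995, 1755 and 1931 without it in Vc- cells (-0.38 ± 0.07). Cct8 stood at 3525, 3641 and 3641 with Tet1CD against 4448, 4448, 4590 and 5372 without it in Vc+ cells and at 2305, 2553 and 2387 with Tet1CD against 3132, 3132, 3019 and 3132 without it in Vc- cells (-0.34 ± 0.06). The libraries with and without Tet1CD did not overlap for any of the 8 genes in either medium, while 31.3% of all genes in Vc+ cells and 15.7% in Vc- cells were lower without overlap. Over all members this held for 28 of 68 (41.2%) in Vc+ cells and 21 of 66 (31.8%) in Vc- cells. Higher without overlap were 17 of 68 members in Vc+ cells (25%, against 25% of all genes) and 11 of 66 in Vc- cells (16.7%, against 15.3% of all genes). Adjusted p for the 8 genes lay between 0.000784 and 0.0248, and with 1 library left out Cct3 lost its call in 5 of 14 fits, while the other 7 kept theirs in every fit. Of 14 chaperonin partners outside the rule (prefoldin and phosducin-like genes), 1 rose (Pdcl3, 0.16 ± 0.06) and 0 fell.

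The pair that forms the mitochondrial chaperonin fell as well, Hspd1 most of all 66 members. Hspd1 (HSP60, chr1:55077835-55088024) stood at 4586, 4586 and 4033 with Tet1CD, against 9353, 10309, 13552 and 28926 without it in Vc+ medium, and the last of these values is the ceiling of the table. In Vc- medium it stood at 3315, 3127 and 3127 with Tet1CD, against 4624, 5742, 4624 and 7025 without it. The values 28926 and 7025, with shp53 plus shDnmt1, do not enter the Tet1CD estimate. The change over both media was -0.98 ± 0.19 (SE), limma adjusted p = 0.00193, which is a fold of 0.508. Hspe1 (HSP10, chr1:55088132-55091307) stood at 1376, 1484 and 1965 with Tet1CD against 2020, 1816, 2047 and 2348 without it in Vc+ cells and at 895, 1003 and 1003 with Tet1CD against 1086, 1143, 1053 and 1250 without it in Vc- cells (-0.24 ± 0.08 (SE), limma adjusted p = 0.0257). Its groups overlapped in Vc+ cells, where Tet1CD with shDnmt1 had 1965, and the call was lost in 6 of 14 fits with 1 library left out.

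**Figure D1:**
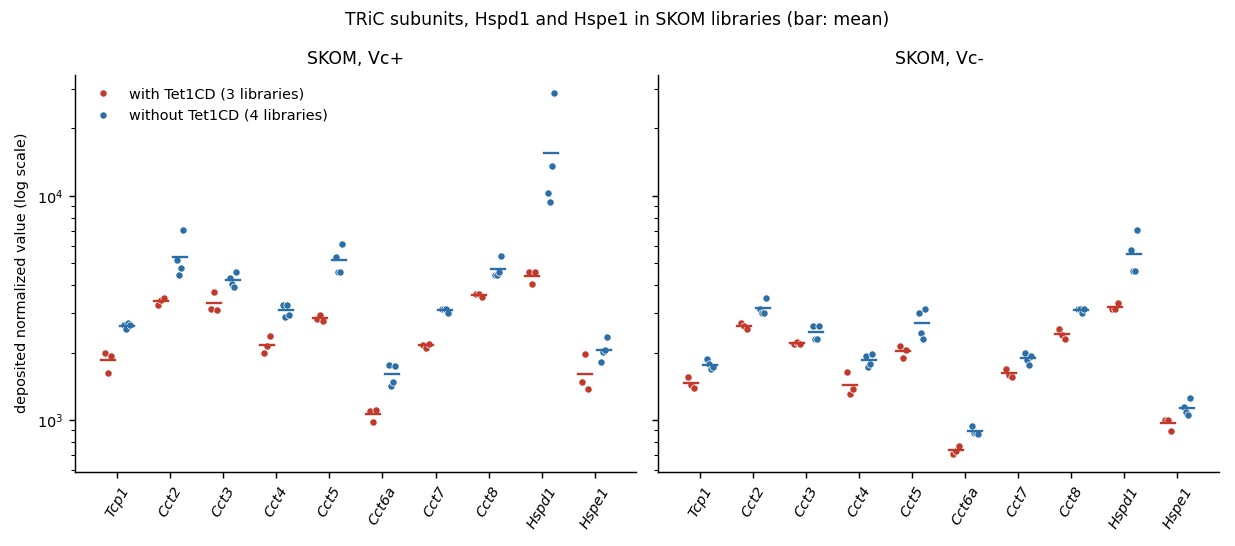
Deposited normalized values (log axis) of the 8 TRiC genes, Hspd1 and Hspe1 in the Vc+ and Vc- SKOM libraries, with 3 libraries with Tet1CD and 4 without per medium as points and their mean as a bar. Every TRiC gene and Hspd1 is lower in each Tet1CD library than in any library of that medium without it, and Hspd1 reaches 28926 in the Vc+ library with shp53 plus shDnmt1.

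Among HSP90 genes the inducible cytosolic Hsp90aa1 fell with Tet1CD. It stood at 5737, 7551 and 6120 with Tet1CD, against 9361, 10316, 13567 and 13567 without it in Vc+ medium, and at 4430, 4629 and 4430 with Tet1CD against 5067, 6570, 5067 and 6325 without it in Vc- medium. The groups did not overlap in either medium, and the change was -0.53 ± 0.12 (SE), limma adjusted p = 0.00403. Hsp90b1, the ER paralogue GRP94, stood at 5372, 6411 and 5739 with Tet1CD against 7553, 7553, 7553 and 7092 without it in Vc+ cells and at 4432, 4830 and 4432 with Tet1CD against 4830, 5068, 4432 and 4830 without it in Vc- cells. It fell by less (-0.22 ± 0.07 (SE), limma adjusted p = 0.0247), its groups overlapped in Vc- cells, and 5 of 14 fits with 1 library left out lost the call. Hsp90ab1 remained at 28926 and 19681, the ceilings.

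HSP70 genes, counted by the Hspa name, moved both ways, with 2 of 11 higher, 3 lower and 6 not past the test. Hspa9, the mitochondrial HSP70 mortalin, stood at 5376, 4793 and 6414 with Tet1CD against 6414, 7559, 6414 and 7559 without it in Vc+ cells and at 3525, 3525 and 3525 with Tet1CD against 4236, 4435, 4236 and 4633 without it in Vc- cells, and fell (-0.30 ± 0.07 (SE), limma adjusted p = 0.00783); its groups met at 6414 in Vc+ cells. Hspa14, a ribosome-associated HSP70, changed by -0.39 ± 0.09 and Hspa12b, known for its expression in endothelium, by -0.75 ± 0.20. Hspa12b was low, at 35 to 73 in Vc+ libraries with Tet1CD, against 111 to 155 without it, and its groups met in Vc- cells (49 to 60 with Tet1CD, against 60 to 82 without it). Of 6 endothelial markers 2 were listed in the SKOM tables, and they moved in opposite directions: Tek stood at 386 to 400 in Vc+ libraries with Tet1CD, against 544 to 634 without it, and fell (-0.31 ± 0.10), while Emcn stood at 124 to 142 with Tet1CD, against 62 to 73 without it, and rose (0.59 ± 0.13). The sum of both was 518 to 528 in Vc+ libraries with Tet1CD, against 609 to 696 without it, and 364 to 414 in Vc- libraries with Tet1CD, against 353 to 388 without it, and its part in the value of Hspa12b was not tested.
Hspa13, an ER-linked HSP70, and Hspa4l, a nucleotide exchange factor of the HSP110 type, rose by small amounts (0.27 ± 0.08 and 0.18 ± 0.06). Hspa5, the ER chaperone BiP, did not pass the test (0.07 ± 0.09 (SE), limma adjusted p = 0.543). It stood at 8002, 8456 and 6406 with Tet1CD against 7079, 7544, 8002 and 8002 without it in Vc+ cells and at 3693, 4825 and 4624 with Tet1CD against 4219, 4219, 3512 and 3891 without it in Vc- cells, with overlapping groups in each medium.
The stress-inducible pair Hspa1a (chr17:34969190-34972156) and Hspa1b (chr17:34956436-34959238) did not pass the test either, with 0.27 ± 0.23 and 0.10 ± 0.10. Hspa1a stood at 100, 107 and 331 with Tet1CD against 130, 99, 111 and 112 without it in Vc+ cells and at 41, 63 and 48 with Tet1CD against 49, 39, 49 and 50 without it in Vc- cells. Hspa1b stood at 297, 286 and 430 with Tet1CD against 275, 298, 271 and 273 without it in Vc+ cells and at 161, 119 and 131 with Tet1CD against 145, 134, 138 and 123 without it in Vc- cells. The Vc+ library with Tet1CD and shDnmt1 was the highest for both genes, and since 58.8% of the 50-base stretches of Hspa1a occur in Hspa1b, the pair cannot be separated with certainty. Hsph1, the HSP110 gene, stood at 1282, 1263 and 1277 with Tet1CD against 1472, 1533, 1533 and 1678 without it in Vc+ cells and at 668, 796 and 622 with Tet1CD against 708, 734, 698 and 774 without it in Vc- cells and did not pass the test over both media (-0.15 ± 0.07 (SE), limma adjusted p = 0.0881), while in the fit of Vc+ cells alone it fell by 0.25.

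All 4 genes of the SKOM tables with an Hspb name, the ciliary Hspb11 among them, had positive fold changes, and 2 rose. Hspb8, which works with Bag3 in clearing misfolded proteins, changed by 0.35 ± 0.10 (SE), limma adjusted p = 0.0158 and Hspb6 (HSP20) by 0.39 ± 0.14 (SE), limma adjusted p = 0.0369. Hspb6 lost its call in 7 of 14 fits with 1 library left out, with values of 0.24 to 0.47. Hspb1, the classical small heat shock protein, stood at 874, 723 and 527 with Tet1CD against 515, 508, 626 and 588 without it in Vc+ cells and at 484, 559 and 556 with Tet1CD against 481, 477, 464 and 396 without it in Vc- cells. It did not pass the test (0.25 ± 0.11 (SE), limma adjusted p = 0.0867): its groups overlapped in Vc+ cells and were apart in Vc- cells, with 484 as the lowest value with Tet1CD and 481 as the highest without it.

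The J-domain families differed in their counts. Of 9 Dnajb genes 6 rose and 0 fell, and all 9 had positive values, with a median of 0.30. Dnajb4, a cytosolic partner of HSP70 (chr3:152178511-152210279), rose most, at 501, 418 and 601 with Tet1CD, against 299, 261, 253 and 289 without it in Vc+ medium. In Vc- medium it stood at 274, 383 and 324 with Tet1CD, against 285, 232, 260 and 200 without it, where the groups overlapped (0.60 ± 0.13 (SE), limma adjusted p = 0.00344 over both media). Dnajb14 stood at 311, 307 and 351 with Tet1CD against 204, 206, 233 and 201 without it in Vc+ cells and at 171, 187 and 212 with Tet1CD against 120, 150, 163 and 118 without it in Vc- cells. Its groups did not overlap in either medium (0.49 ± 0.06 (SE), limma adjusted p = 0.000311).
Dnajb9, the ER protein ERdj4 (chr12:44205897-44210068), stood at 227, 211 and 226 with Tet1CD against 138, 126, 120 and 134 without it in Vc+ cells and at 142, 163 and 151 with Tet1CD against 137, 119, 130 and 107 without it in Vc- cells, without overlap (0.50 ± 0.10 (SE), limma adjusted p = 0.00232). Dnajb5 and Dnajb2 rose by 0.41 ± 0.13 and 0.26 ± 0.08, and lost their calls in 6 and 4 of 14 fits with 1 library left out. Dnajb1, the classical HSP40 and an Hsf1 target, stood at 333, 330 and 321 with Tet1CD against 312, 317, 287 and 373 without it in Vc+ cells and at 169, 234 and 212 with Tet1CD against 186, 194, 186 and 183 without it in Vc- cells. It did not pass the test (0.10 ± 0.08 (SE), limma adjusted p = 0.287).
Of 4 Dnaja genes 1 rose, Dnaja4 (0.42 ± 0.10), which shares exon bases with Wdr61. Dnaja1, a cytosolic partner of HSP70, stood at 2779, 2836 and 2836 with Tet1CD against 2648, 2702, 2703 and 2836 without it in Vc+ cells and at 1600, 1643 and 1532 with Tet1CD against 1728, 1696, 1564 and 1512 without it in Vc- cells, with a fold change of 0.00 ± 0.05. Of 22 Dnajc genes 6 rose and 6 fell. Those that rose included Dnajc1 of the ER (0.51 ± 0.12 (SE), limma adjusted p = 0.00529), Dnajc5, the cysteine string protein (0.38 ± 0.09), and Dnajc3. Dnajc3, the ER protein P58IPK, stood at 881, 948 and 1004 with Tet1CD against 694, 651, 633 and 580 without it in Vc+ cells and at 525, 617 and 547 with Tet1CD against 508, 452, 465 and 373 without it in Vc- cells, without overlap (0.38 ± 0.07 (SE), limma adjusted p = 0.00197).
Those that fell included Dnajc21, which acts in maturation of the large ribosomal subunit (-0.47 ± 0.09 (SE), limma adjusted p = 0.00169), Dnajc2 of the ribosome-associated complex (-0.39 ± 0.10) and Dnajc9, a histone chaperone (-0.31 ± 0.07). Dnajc15 was at the threshold (-0.27 ± 0.10 (SE), limma adjusted p = 0.05) and lost its call in 11 of 14 fits with 1 library left out. Hspbap1 and Hspbp1, which match by name only, fell by 0.43 and 0.40 on the log2 scale.

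**Figure D2:**
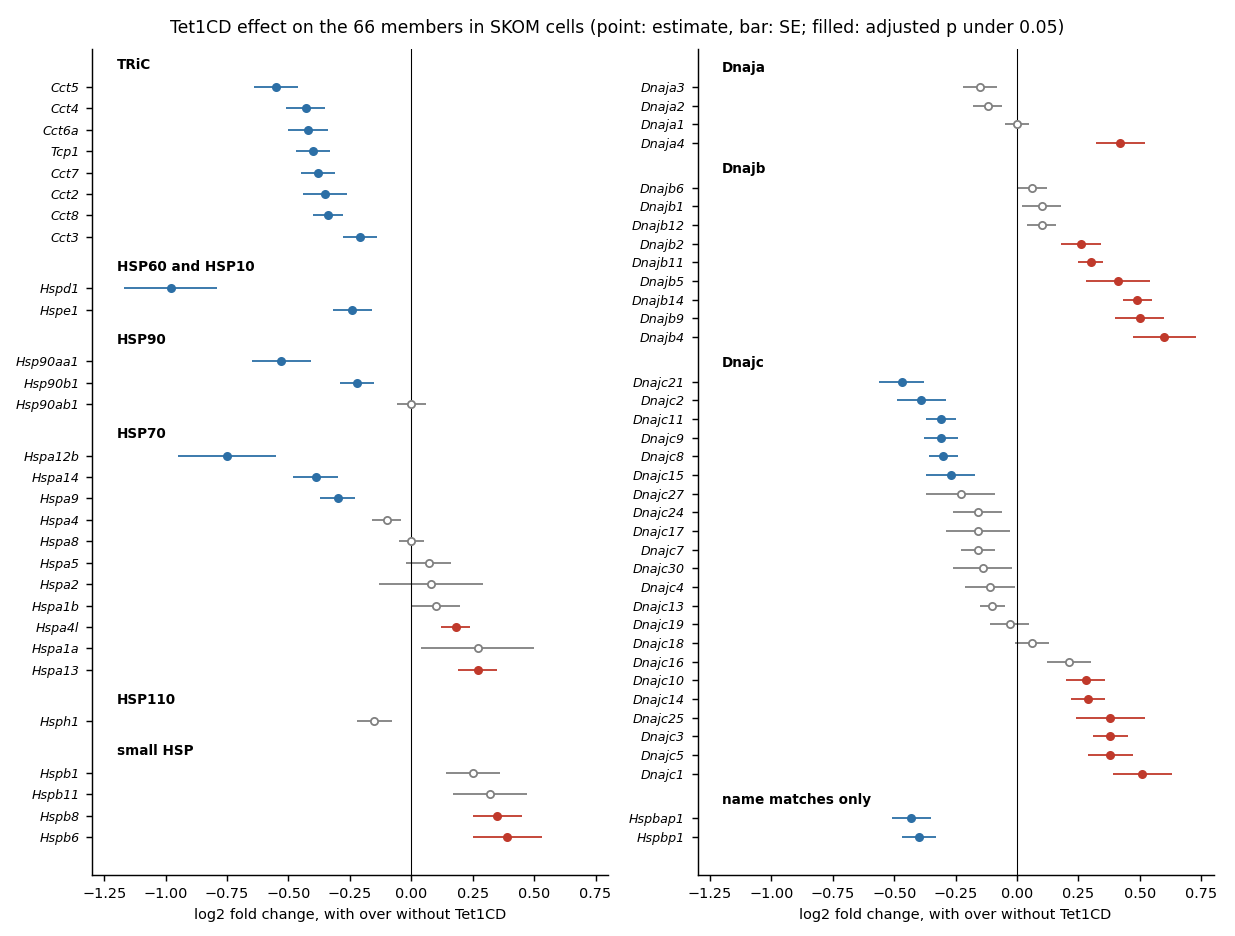
Log2 fold change with over without Tet1CD for the 66 members listed in both SKOM tables, ordered by family, with the estimate as a point and its standard error as a bar; filled points passed an adjusted p of 0.05. All 8 TRiC genes lie left of 0 and all 9 Dnajb genes right of it.

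Grouped by compartment, 6 of the 8 genes listed as ER members (Hspa5, Hspa13, Hsp90b1, Dnajb9, Dnajb11, Dnajc1, Dnajc3 and Dnajc10) rose and 1 fell (Hsp90b1), with a median of 0.29. Of 8 mitochondrial members 0 rose and 5 fell (Hspd1, Hspe1, Hspa9, Dnajc11 and Dnajc15), with a median of -0.26. Of 15 members held to be induced through Hsf1, 3 rose (Dnajb4, Hspb8 and Hspa4l), 3 fell (Hspd1, Hsp90aa1 and Hspe1) and 9 did not pass, with a median of 0.00. The 9 include Hspa8 and Hsp90ab1, whose values were fixed within each medium. They could not pass and enter the median as unchanged. The heat shock factor genes Hsf1 (-0.03 ± 0.08 (SE), limma adjusted p = 0.759) and Hsf2 (-0.03 ± 0.07 (SE), limma adjusted p = 0.727) did not pass, nor did Hsbp1, which encodes a binding protein of the factor (0.12 ± 0.09 (SE), limma adjusted p = 0.33), and 0 of these 3 had an unadjusted p under 0.05. Genes outside the rule were counted for the same compartments. Of 27 listed ER chaperone and unfolded protein response genes 12 rose and 1 fell, with a median of 0.17. The largest changes there were Ero1l, an ER oxidase (0.99 ± 0.11), Ddit3, the stress factor CHOP (0.97 ± 0.14), and Selk (0.51 ± 0.12), while Atf4 fell by 0.16.
Of 14 listed mitochondrial chaperones and proteases 0 rose and 7 fell, led by Pitrm1, a presequence protease (-0.45 ± 0.06). Of 27 co-chaperones of HSP70 and HSP90, 10 fell and 1 rose. The immunophilins Fkbp4 and Fkbp5 fell by 0.82 and 0.74, Aarsd1 fell by 0.56, and Bag3 rose (0.61 ± 0.09). These lists and the member groups were drawn up with earlier results of these data known.
Other values moved with the Tet1CD comparison. Myc, one of the introduced factors, stood at 6109, 7069 and 7995 with Tet1CD against 18104, 13537, 18104 and 13535 without it in Vc+ cells and at 10782, 7021 and 10782 with Tet1CD against 19681, 19681, 19681 and 19681 without it in Vc- cells (-1.15 ± 0.10), and 19681 is the ceiling of the Vc- table. The other introduced factors fell as well: Klf4 (-0.61 ± 0.18) stood at 3886 to 4142 in Vc+ libraries with Tet1CD, against 7995 to 10302 without it, Pou5f1 (-0.46 ± 0.13) at 3076 to 3259 with Tet1CD, against 4772 to 6109 without it, and Sox2 (-0.45 ± 0.11) at 2379 to 2500 with Tet1CD, against 3885 to 4583 without it. In Vc- cells the groups of Klf4, Pou5f1 and Sox2 overlapped. Dnmt1 (-0.59 ± 0.12) and Trp53 (-0.39 ± 0.08) fell too, with overlapping groups in both media. Some of these libraries held hairpins against these genes. Between libraries of a medium with the same other constructs, both genes were lower with Tet1CD each time. In Vc+ cells Dnmt1 stood at 1080, 1224 and 655 with Tet1CD, against 2346, 2381 and 1154 in the matched libraries. Trp53 stood there at 962, 1076 and 803, against 1194, 1365 and 1304. Of 16 macrophage markers 4 were listed in both SKOM tables, and 4 rose. Their sum, which in Vc+ cells includes 1 more listed marker, was 2449 to 3250 in Vc+ libraries with Tet1CD, against 338 to 493 without it, and 633 to 735 in Vc- libraries with Tet1CD, against 302 to 400 without it. Ptprc was at 0 in the Vc+ control and in the Vc- library with shp53 plus shDnmt1, and 11 of the 16 markers were not listed in the Vc+ table. Of 11 fibroblast markers 6 rose and 0 fell. The part of these genes and markers in the chaperone results was not tested.

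Within each medium TRiC and Hspd1 were again lower with Tet1CD, and fewer members were called in Vc- cells. In Vc+ cells 16 members rose and 23 fell of 68 (57.4%, against 44.2% of all genes), where 20.7% of all genes rose and 23.6% fell. In Vc- cells 5 rose and 12 fell of 66 (25.8%, against 14.6% of all genes), where 7.25% of all genes rose and 7.38% fell. In Vc+ cells Hspd1 fell most (-1.31), followed by Hspa12b, Hsp90aa1, Cct5, Hspa14 and Dnajc2 (-1.13 to -0.60), and Dnajb4 rose most (0.88), followed by Dnajc1, Dnajb9, Dnajb5, Hspb6 and Dnajc5 (0.79 to 0.62). In Vc- cells Hspd1 fell most as well (-0.64), followed by Dnajc21, Cct8, Hspbp1, Cct5 and Cct4 (-0.37 to -0.33), and the 5 that rose were Hspa2, Hspb8, Dnajb14, Dnajc14 and Dnajb11 (0.75 to 0.30). TRiC had 7 of 8 genes called lower in Vc+ medium (median -0.52) and 7 of 8 in Vc- medium (median -0.29), with Cct3 the exception in each. ER members had 6 rises and 1 fall of 8 in Vc+ cells, and 1 rise of 8 in Vc- cells. These fits had 2 residual degrees of freedom. The Vc- count of 17 fell to 0 without the library labelled Dnmt1, without Tet1CD plus Dnmt1, without shDnmt1 or without Tet1CD plus shDnmt1, and to 1 without an intensity trend in the variances. The Vc+ count of 39 fell to 10 without the library labelled Dnmt1 or without Tet1CD plus Dnmt1.

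The difference of the Tet1CD effect between media was tested in 1 model, and 9 of 66 members passed (13.6%, against 16.9% of all genes), a share below that of all genes. The change was higher in Vc+ cells for 4 (8.57% of all genes) and lower for 5 (8.28% of all genes), and after rescaling of the libraries for 5 and 2. Hspa2, an HSP70 gene best known from testis (chr12:76404176-76406934), went in opposite directions. It stood at 103, 129 and 128 with Tet1CD, against 159, 195, 198 and 181 without it in Vc+ medium and at 163, 183 and 190 with Tet1CD, against 98, 110, 104 and 117 without it in Vc- medium. The groups did not overlap in either medium: Hspa2 fell in Vc+ cells (-0.60 ± 0.10 (SE), limma adjusted p = 0.00494) and rose in Vc- cells (0.75 ± 0.08 (SE), limma adjusted p = 0.0075), a difference of -1.35 ± 0.12 (SE), limma adjusted p = 0.000339. Hspd1 fell by more in Vc+ cells (-1.31 ± 0.15) than in Vc- cells (-0.64 ± 0.08), with a difference of -0.67 ± 0.19 (SE), limma adjusted p = 0.0386. Cct5, Cct7 and Hspa14 also fell by more in Vc+ cells, with differences of -0.42, -0.33 and -0.46. Dnajb5, Dnajc1, Dnajb9 and Dnajc5 had higher changes in Vc+ cells, by 0.70, 0.57, 0.54 and 0.47. The count was 1 to 13 with 1 library left out and 5 without an intensity trend in the variances. It was 4 or lower without each of 8 libraries: the control, shDnmt1, Tet1CD plus shDnmt1 and Tet1CD of Vc- cells, and the control, Tet1CD, Tet1CD plus Dnmt1 and the library labelled Dnmt1 of Vc+ cells.

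**Figure D3:**
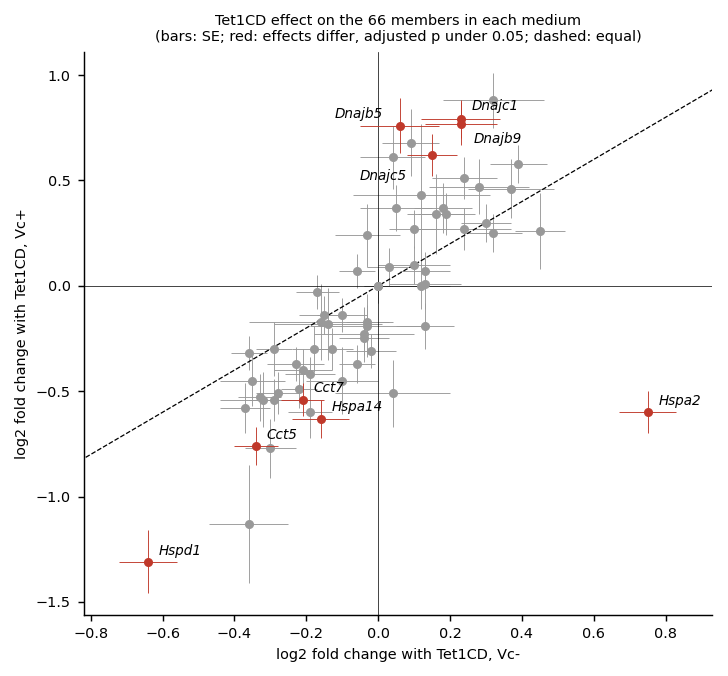
Log2 fold change with Tet1CD in Vc+ cells (vertical axis) against that in Vc- cells (horizontal axis) for 66 members, with standard errors as bars, members whose effects differ between media in red and equal effects on the dashed line. Hspa2 is the only red point in the lower right, with -0.60 in Vc+ and 0.75 in Vc- cells.

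For shDnmt1, shp53 and the library labelled Dnmt1 in SKOM cells, 0 of 66 members passed in limma, against 0.0187%, 0.00934% and 0% of all genes. At an unadjusted p of 0.05 the counts were 2, 9 and 0 of 66 members, against 383, 1129 and 84 of all 10711 genes. The fit had little reach: Dnmt1 itself changed with shDnmt1 by -0.94 ± 0.15 (SE), limma adjusted p = 0.153, and Trp53 with shp53 by -0.91 ± 0.13 (SE), limma adjusted p = 0.052, both short of the threshold. With shp53, which in SKOM cells was present only together with shDnmt1, Dnajb14 had the smallest p among members (-0.32 ± 0.10 (SE), limma adjusted p = 0.376), followed by Hspd1 (0.94 ± 0.30 (SE), limma adjusted p = 0.381) and Cct2 (0.38 ± 0.14). Hspd1 stood at 28926 (Vc+, the ceiling) and 7025 (Vc-) with shp53 plus shDnmt1, against 13552 (Vc+) and 4624 (Vc-) with shDnmt1. Under a model with medium-specific terms 1 member passed for shp53, with 226 of all genes. For shDnmt1 the smallest p among members was that of Dnajb14 (0.27 ± 0.08 (SE), limma adjusted p = 0.928), then those of Dnajc21 (0.27 ± 0.11) and Hspbap1 (0.20 ± 0.10). For the library labelled Dnmt1 it was that of Dnajc24 (-0.26 ± 0.13 (SE), limma adjusted p = 1), then those of Hsp90aa1 (0.24 ± 0.15) and Dnajc30 (0.23 ± 0.15).

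Vitamin C was compared across tables, without a test, through the 7 construct pairs, since the tables were normalized separately. Ratios were centred on the median gene of each pair, which lay 0.52 to 0.57 higher in Vc+ libraries on the log2 scale. A gene counted as changed when all pairs had the same sign and the median was at least 1.5-fold. Of 66 members 1 was higher in Vc+ cells and 0 were lower (1.52%, against 2.73% of all genes). This was Hspa1a, with a median log2 ratio of 0.67 (pairs 0.20 to 2.15). Its values were 99 to 331 in Vc+ libraries, against 39 to 63 in Vc- libraries, and the highest ratio came from Tet1CD plus shDnmt1. Without that pair the count was still 1, and with a pseudocount of 16 it was 0. Hspa1b at 0.55 (pairs 0.33 to 1.16) and Hsph1 at 0.49 (pairs 0.14 to 0.56) were positive in 7 of 7 pairs but under 1.5-fold. TRiC had a median ratio of 0.10. Without centring 33 members passed as higher, so that count rests on the scale of the tables.

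SKOM cells differed from MEFs with the same constructs in the ER members, most of which were lower. Across 5 pairs in each medium (control, Dnmt1, shDnmt1, shp53 plus shDnmt1 and Tet1CD), with the same rule and no test, 8 of 67 members were higher and 17 lower in Vc+ SKOM cells (37.3%, against 34.6% of all genes), where 15.9% of all genes were higher and 18.7% lower. In Vc- SKOM cells 3 were higher and 13 lower of 66 (24.2%, against 29.6% of all genes), where 14.2% of all genes were higher and 15.4% lower. The shares in either direction were near those of all genes. By direction 11.9% of members were higher and 25.4% lower in Vc+ cells, and 4.55% higher and 19.7% lower in Vc- cells. In both media the share higher was thus below that of all genes and the share lower above it. The median gene lay at 0.24 to 0.31 (Vc+) and -0.30 to -0.27 (Vc-) before centring. Without centring the counts were 12 higher and 9 lower in Vc+ cells and 2 higher and 24 lower in Vc- cells, and at 2-fold 10 and 5 members passed. The 5 pairs of each medium share the same MEF libraries.
Of 8 ER members 7 were lower in Vc+ SKOM cells and 6 in Vc- SKOM cells, and 0 were higher. Hspa5 stood at 7079 in the Vc+ control and 4219 in the Vc- control, against 9045 in the MEF control, with median ratios of -0.66 (pairs -0.93 to -0.30) in Vc+ and -0.98 (pairs -1.38 to -0.83) in Vc- cells. Dnajc10, the ER reductase ERdj5, had ratios of -1.24 (pairs -1.34 to -0.87) in Vc+ and -1.22 (pairs -1.42 to -1.09) in Vc- cells. Dnajb9 had -1.13 (pairs -1.34 to -0.82) and -0.66 (pairs -1.20 to -0.55), and Hsp90b1 -0.71 (pairs -1.25 to -0.56) and -0.76 (pairs -1.01 to -0.61). Of 27 ER genes outside the rule 12 were lower and 1 higher in Vc+ SKOM cells, and 13 lower and 2 higher in Vc- SKOM cells.
Among members listed in both media the lowest median ratios were those of Dnajb4, -2.13 (pairs -2.27 to -1.42) in Vc+ and -1.71 (pairs -1.86 to -1.56) in Vc- cells, and Hspb6, -1.90 (pairs -2.12 to -1.55) and -1.77 (pairs -1.88 to -1.41). Hspb11 (-1.19 to -0.69 over the Vc+ pairs and -1.33 to -0.94 over the Vc- pairs) and Hspa13 (-1.18 to -0.75 over the Vc+ pairs and -0.99 to -0.82 over the Vc- pairs) were lower as well. In the controls Dnajb4 stood at 299 (Vc+) and 285 (Vc-) in SKOM cells, against 1072 in MEFs. Hspa12a, listed in Vc+ cells and MEFs but not in Vc- cells, had -1.94 (pairs -2.29 to -1.69), and Dnajb5 had -1.26 (pairs -1.60 to -0.62) and -0.68 (pairs -0.96 to -0.64).
Hspb8 and Dnajc21 were higher in SKOM cells in both media: Hspb8 by 0.86 (pairs 0.53 to 1.03) and 1.06 (pairs 0.70 to 1.13), and Dnajc21 by 1.41 (pairs 0.35 to 1.47) and 1.13 (pairs 0.44 to 1.22). In Vc+ cells Hspa1a (1.12 (pairs 0.66 to 1.53)), Hspd1 (0.72 (pairs 0.23 to 2.07)), Hspa1b (0.69 (pairs 0.49 to 1.14)) and Cct5 (0.68 (pairs 0.16 to 0.91)) were also higher, and in Vc- cells Hspa2 (median 0.60, at least 0.20 in each pair). TRiC as a whole had median ratios of 0.18 (Vc+) and 0.06 (Vc-), with 1 and 0 of 8 genes past the rule. Fibroblast markers were lower for 9 of 12 (Vc+) and 8 of 11 (Vc-), with medians of -2.37 and -1.57, and their part in these ratios was not tested.

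**Figure D4:**
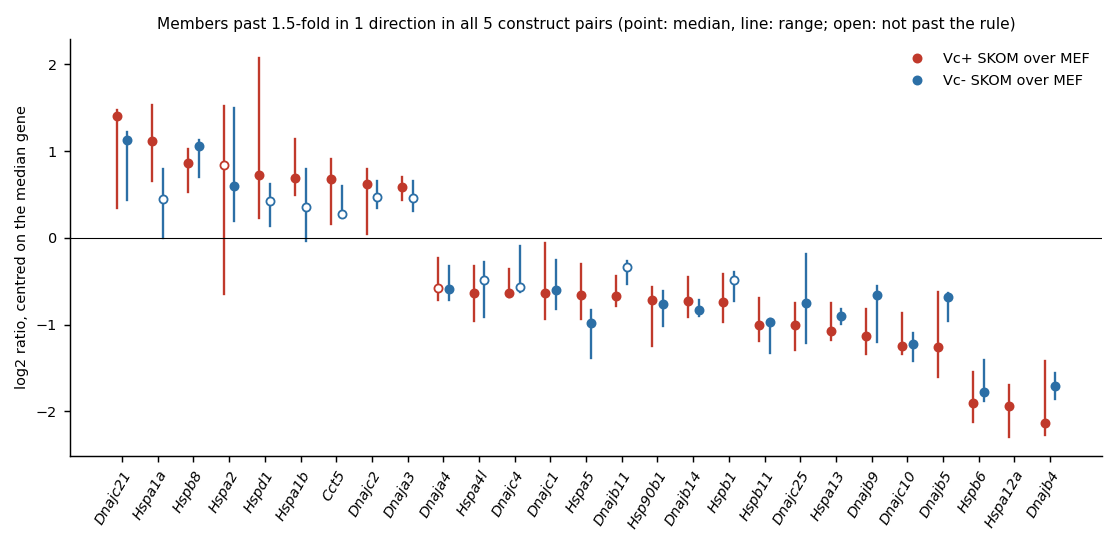
Log2 ratios of SKOM over MEF libraries with the same constructs, centred on the median gene, for the members past 1.5-fold in 1 direction in all 5 pairs in either medium, with the median as a point (open where the rule was not met) and the range over pairs as a line. Dnajc21 and Hspb8 lie above 0 and Dnajb4 and Hspb6 lie lowest among members listed in both media.

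In MEFs the hairpin against p53 was compared in a layout of 4 libraries, shp53 and shp53 plus shDnmt1 against the control and shDnmt1, which leaves 1 residual degree of freedom. Here the chaperonins, cytosolic HSP90 and several HSP70 genes were higher with shp53. Of 68 members 26 passed (38.2%, against 23% of all genes): 18 rose (26.5%, against 11.5% of all genes) and 8 fell (11.8%, against 11.5% of all genes). The median log2 fold change was 0.17 for members and -0.01 for all genes. The calls rest on variances moderated with an intensity trend; without that trend 0 of 68 members and 0 of all genes passed.
Hsp90aa1 stood at 15113 with shp53 and 9058 with shp53 plus shDnmt1, against 7669 in the control and 5631 with shDnmt1 (0.83 ± 0.09 (SE), limma adjusted p = 0.00481). Hsp90ab1 stood at 38803 with shp53 and 38803 with shp53 plus shDnmt1, against 19818 in the control and 19818 with shDnmt1 (0.97 ± 0.05). Both values with shp53 are the ceiling, and the next value below it was 19852 in each MEF library. The size of this step and its small SE thus follow the spacing of the values, and the true size of the rise is unknown. Hspd1 stood at 10838 with shp53 and 5624 with shp53 plus shDnmt1, against 5061 in the control and 4132 with shDnmt1 (0.77 ± 0.15 (SE), limma adjusted p = 0.0211). All 3 were higher in both hairpin libraries than in their partners, Hspd1 by more in the pair without shDnmt1. Hspe1 stood at 2079 and 1879 with shp53 against 1509 and 1259 without it (0.52 ± 0.09).
Among HSP70 genes 6 of 12 rose and 1 fell. Hspa5 stood at 15100 and 12476 with shp53 against 9045 and 8044 without it (0.69 ± 0.07 (SE), limma adjusted p = 0.0041), Hspa9 at 10007 and 8057 with shp53 against 7183 and 5638 without it (0.50 ± 0.07) and Hspa8 at 15091 and 15091 with shp53 against 12468 and 10832 without it (0.38 ± 0.07). Hsph1 stood at 1365 and 1069 with shp53 against 997 and 836 without it and rose (0.40 ± 0.09). Hspa1a and Hspa1b did not pass, with 0.16 ± 0.33 and 0.22 ± 0.16, at 56 and 34 with shp53 against 33 and 45 without it and at 136 and 157 with shp53 against 136 and 115 without it.
All 8 TRiC genes had positive values, with a median of 0.29 and a range of 0.22 to 0.36, and 3 passed (Cct2, Cct4 and Cct8). Cct2 stood at 4682 and 4132 with shp53 against 3602 and 3316 without it (0.35 ± 0.07 (SE), limma adjusted p = 0.0262) and Cct8 at 4259 and 4403 with shp53 against 3537 and 3457 without it (0.31 ± 0.08). Cct3 stood at 3160 and 2862 with shp53 against 2393 and 2450 without it, Cct4 at 3146 and 3825 with shp53 against 2651 and 2741 without it, Cct5 at 3153 and 2657 with shp53 against 2444 and 2328 without it and Cct6a at 1192 and 1262 with shp53 against 1108 and 1006 without it. Cct7 stood at 2501 and 2328 with shp53 against 2156 and 1850 without it and Tcp1 at 2548 and 2507 with shp53 against 2237 and 1933 without it. Each of the 8 was higher with shp53 in both pairs.
Dnajc21 had the largest rise of all members, at 413 with shp53 and 251 with shp53 plus shDnmt1, against 132 in the control and 143 with shDnmt1 (1.20 ± 0.20 (SE), limma adjusted p = 0.0144), and Dnajc2 stood at 608 and 501 with shp53 against 374 and 316 without it (0.68 ± 0.10). Of the 8 that fell, 3 had an Hspb name (Hspb7, Hspb1 and the ciliary Hspb11) and 4 were J-domain genes. Hspb7, a small heat shock protein of heart and muscle, stood at 36 and 36 with shp53 against 83 and 100 without it (-1.23 ± 0.20 (SE), limma adjusted p = 0.0126), and Hspa2 at 60 and 48 with shp53 against 103 and 82 without it (-0.72 ± 0.17). Dnajc18, Dnajc25, Hspb11 and Dnajb14 fell by 0.68, 0.50, 0.44 and 0.43. Hspb1 stood at 575 and 671 with shp53 against 767 and 853 without it and fell by 0.38.
Hsp90b1 (9062 and 9062 with shp53 against 10001 and 9062 without it), Dnajb9 (214 and 196 with shp53 against 249 and 252 without it) and Dnajc3 (687 and 675 with shp53 against 826 and 706 without it) did not pass, nor did Dnaja1 (2511 and 2240 with shp53 against 2167 and 1935 without it) and Dnajb1 (299 and 264 with shp53 against 305 and 251 without it). Of 8 ER members 1 rose (Hspa5) and 1 fell (Dnajc1), and 7 had negative values. Of the 27 ER genes outside the rule 1 rose and 8 fell, led by Ero1l (-1.10 ± 0.11), and of 27 co-chaperones 7 rose and 2 fell, with Aarsd1 (1.09 ± 0.20), Fkbp4 (0.96 ± 0.09) and Fkbp5 (0.83 ± 0.11) highest and Bag3 lowest (-0.84 ± 0.10). The heat shock factor genes Hsf1 (0.11 ± 0.11) and Hsf2 (0.07 ± 0.11) did not pass, and Hsbp1, the gene of the binding protein, fell (-0.56 ± 0.10). Myc stood at 1557 and 1049 with shp53 against 839 and 678 without it (0.76 ± 0.11), and the macrophage marker sum was 586 and 115 with shp53, against 249 and 1063 without it; their part in the result was not tested.

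**Figure D5:**
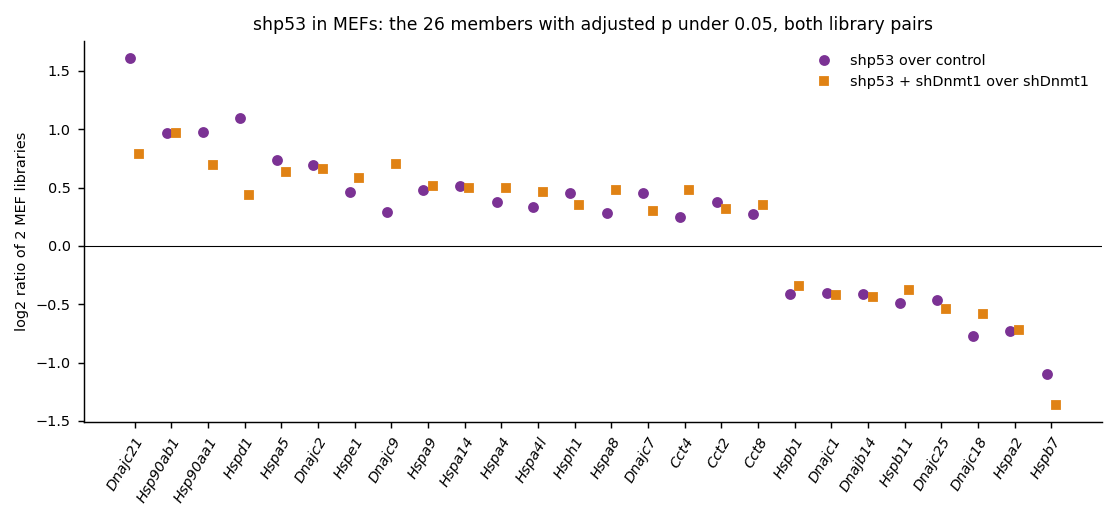
Log2 ratio of shp53 over control and of shp53 plus shDnmt1 over shDnmt1 in MEFs, each the ratio of 1 library to 1 library, for the 26 members with an adjusted p under 0.05. For each of the 26 both pairs lie on the same side of 0, and the pairs of Dnajc21 and Hspd1 lie farthest apart. The selection favours equal signs, since the fit averages both pairs and takes its residual from their difference. Over all 68 members 33 were positive in both pairs and 24 negative in both.

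For shDnmt1 in the same 4 MEF libraries 0 of 68 members passed in limma, against 0.00898% of all genes. An unadjusted p under 0.05 was found for 10 of 68 members, against 1377 of all 11135 genes. Hsp90aa1 had the smallest p (-0.59 ± 0.09 (SE), limma adjusted p = 0.213), followed by Hspa9 (-0.33 ± 0.07) and Hspd1 (-0.62 ± 0.15). After rescaling the libraries to a median ratio of 0, 3 members passed as lower, while 418 of all genes passed in either direction.

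The remaining MEF libraries were compared with the control as single libraries, without a test, and a gene counted as changed past 1.5-fold where the mean value was at least 50. With Tet1CD 3 members were higher and 2 lower of 67 (7.46%, against 10.8% of all genes), where 4.91% of all genes were higher and 5.93% lower, and at 2-fold 1 member remained. Hspb7 stood at 385 in MEFs with Tet1CD, against 83 in the control, Hspb8 at 595 with Tet1CD against 338 in the control, and Dnajb9 at 406 with Tet1CD against 249 in the control. Hspd1 stood at 3316 in MEFs with Tet1CD, against 5061 in the control, and Hspa12b at 42 with Tet1CD against 87 in the control. All 8 TRiC genes were lower with Tet1CD than in the control, by 0.06 to 0.23 on the log2 scale, each under 1.5-fold. Hspe1 stood at 1165 with Tet1CD against 1509 in the control, Hspa9 at 5638 with Tet1CD against 7183 in the control, and Hsp90aa1 at 6140 with Tet1CD against 7669 in the control, while Hspa5 was at 9045 in both. The macrophage marker sum was 1528 with Tet1CD, against 249 in the control. Of the 2 listed endothelial markers Kdr stood at 32 with Tet1CD, against 139 in the control, and Emcn at 313 with Tet1CD, against 215 in the control. The part of these markers in the values was not tested.
In the library labelled Dnmt1 0 of 67 members passed (against 1.37% of all genes), with log2 ratios of -0.44 to 0.38. The macrophage marker sum there was 1030.
The chaperonin genes show the scale of these differences, with values for Tet1CD, the library labelled Dnmt1 and 5C against the control. Tcp1 stood at 1913, 2237 and 3074 against 2237 in the control, Cct2 at 3245, 3447 and 1817 against 3602 in the control, Cct3 at 2113, 2199 and 1512 against 2393 in the control and Cct5 at 2109, 2387 and 1341 against 2444 in the control. Cct7 stood at 1930, 2195 and 1335 against 2156 in the control and Cct8 at 3074, 3607 and 1933 against 3537 in the control. Over all 8 chaperonin genes the log2 ratio to the control was -0.23 to -0.06 with Tet1CD and -0.12 to 0.03 in the library labelled Dnmt1, and 5C lay below the control for 5 of these 6 genes. In the same order Hsp90b1 stood at 10848, 10001 and 9062 against 10001 in the control, Hsph1 at 948, 1090 and 403 against 997 in the control and Hspb1 at 985, 803 and 340 against 767 in the control. Hspa8 stood at 9036, 12468 and 9036 against 12468 in the control, Dnaja1 at 1962, 2084 and 1632 against 2167 in the control and Dnajb1 at 295, 310 and 156 against 305 in the control. Dnajc3, of the ER, stood at 822, 759 and 827 against 826 in the control.
In the 5C library 14 members were higher and 34 lower of 67 (71.6%, against 67.1% of all genes). The share in either direction was close to that of all genes, but the balance of directions was not. Of the members 20.9% were higher and 50.7% lower, against 29.4% and 37.7% of all genes. The median log2 ratio was -0.66 for members and -0.15 for all genes. Dnajc15, a mitochondrial inner membrane J-domain protein (chr14:77826217-77874917), stood at 1875 in the 5C library, against 188 in the MEF control, the largest rise of all members. Hspbp1 stood at 444 in 5C against 68 in the control, Dnajc18 at 841 in 5C against 178 in the control, and Hspa12b at 317 in 5C against 87 in the control. Dnajc4 (240 in 5C against 73 in the control) and Dnajc30 (326 in 5C against 102 in the control) came next. Cct6a (chr5:129787439-129845820) stood at 34 in the 5C library, against 1108 in the control, while Cct4 stood at 4671 in 5C against 2651 in the control. TRiC genes thus spread over -4.83 to 0.82 on the log2 scale in 1 library, with 6 of 8 lower and 1 higher past 1.5-fold. Hspb7 (1 in 5C against 83 in the control), Dnajb5 (28 in 5C against 230 in the control), Hspa1b (15 in 5C against 136 in the control), Dnajb4 (153 in 5C against 1072 in the control) and Hspa2 (14 in 5C against 103 in the control) were the lowest next to Cct6a. Hsp90aa1 stood at 2236 in 5C against 7669 in the control, Hsp90ab1 at 6117 in 5C against 19818 in the control, and Hspa5 at 19827 in 5C against 9045 in the control. Of 15 members held to be induced through Hsf1, 14 had a sufficient mean, and 10 of these were lower and 1 was higher (Hspe1, 2856 in 5C against 1509 in the control). Hsf1 stood at 111 in the 5C library, against 331 in the control. The macrophage marker sum was 5659 in the 5C library, against 249 in the control. Kdr stood at 11 in 5C against 139 in the control and Emcn at 116 in 5C against 215 in the control. The fibroblast marker sum was 165955 in 5C, against 137406 in the control. Yet of 12 fibroblast markers 4 were higher and 2 lower past 1.5-fold, and 7 had negative log2 ratios, with a median of -0.17. The part of these markers in the differences was not tested.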

How the data were processed

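The authors deposited 3 tables of whole numbers, 1 for MEFs and 1 each for Vc- and Vc+ SKOM cells, read here as a normalized score. Within a table the libraries shared the highest and the second highest value, and their medians agreed or nearly agreed. Hspa8 also held 1 value in all Vc+ libraries and 1 in all Vc- libraries. The libraries were thus matched in more than scale, and high values move in steps. The method is not given, and the depth is unknown. Bowtie, RSEM and the build mm10 appear in the submitters' processing notes, without roles or versions. Members and gene lists were chosen with earlier results of these data known. Groups came from the sample titles. Values were tested as log2(value + 5) for genes with a mean of at least 10, using limma 3.58.1 (R 4.3.3) with an intensity trend and Benjamini-Hochberg adjustment over all genes. The SKOM model held medium, Tet1CD, shDnmt1, shp53 and Dnmt1 as additive terms (8 residual degrees of freedom), and a second model crossed medium with each construct. The MEF model used 4 libraries. Across tables and for lone MEF libraries only ratios were formed. Values are given for preset anchor genes and, per comparison, up to 6 members per direction with the largest change past the threshold (3 smallest p where none passed), with up to 3 genes per outside list. Alternatives were pseudocounts of 1 and 16, no filter, no trend, rescaled libraries and left-out libraries.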

Additional observations from a re-analysis of the deposited data

Results flagged for a closer look

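For 9 members the change with Tet1CD differed between Vc+ and Vc- cells in a test of the difference itself, given here as Vc+ minus Vc- on the log2 scale. Hspa2 differed by -1.35, with opposite directions in the media. Hspd1 differed by -0.67, Hspa14 by -0.46, Cct5 by -0.42 and Cct7 by -0.33, and each of these 4 had the lower change in Vc+ cells. Dnajc5 differed by 0.47, Dnajb9 by 0.54, Dnajc1 by 0.57 and Dnajb5 by 0.70, with the higher change in Vc+ cells. The share of members with such a difference, 13.6%, was below that of all genes, 16.9%.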

How the results depend on the processing

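The count of members called for Tet1CD in SKOM cells was 39 to 42 under the 6 other settings and 31 to 43 with 1 library left out, and 31 of the 40 members were called in every fit that left out 1 library. Of these calls 0 changed direction under any setting. The count for the difference between media was 5 without an intensity trend and 1 to 13 with 1 library left out. For Tet1CD within Vc- cells it was 1 without the trend and 0 to 21 with 1 library left out, and within Vc+ cells 10 to 41 with 1 library left out. For shp53 in SKOM cells it was 1 in the model with medium-specific terms. For shp53 in MEFs it was 0 without the trend, and for shDnmt1 in MEFs 3 after rescaling. Between Vc+ and Vc- cells it was 0 with a pseudocount of 16, 0 at 2-fold and 33 without centring. Between SKOM cells and MEFs it was 5 at 2-fold and 26 without centring (Vc-) and 10 at 2-fold (Vc+), and for MEFs with Tet1CD 1 at 2-fold. The cause of these shifts was not tested, except that left-out libraries leave fewer degrees of freedom and a 2-fold limit is stricter. Leaving out a library of the 4-library MEF layout could not be fitted with a test, since no residual degrees of freedom remain. The sample titles give no replicate number, so no block on it was fitted. In the Tet1CD fits the terms for shDnmt1 and Dnmt1 matched libraries of a medium, with and without Tet1CD, by their other constructs. Libraries with shp53 plus shDnmt1 have no such match, and the shp53 term kept them out of the Tet1CD estimates. Libraries of different tables with the same constructs were compared as ratios, without a test. Depth is unknown, and genes at a ceiling or with a fixed value cannot show change.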
